A study of Mus musculus with 15 samples.

Results

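The genes described here are 32 genes of cholesterol synthesis, its regulation, and the uptake, storage and export of sterols, out of 45804 genes with a single row in the table of cecal expression. They were chosen by gene symbol, from a list drawn up with the antibiotic comparison of these same mice already known: 20 enzymes in the order of the pathway, 5 regulators and 7 genes of transport and storage. Their differences between the groups are therefore a description, with no p-value of their own. The study asked how antibiotic-induced microbiome depletion (AIMD) alters the gut and metabolism of the mouse. Wild-type C57BL/6 males received water (8 vehicle mice) or antibiotics (7 AIMD mice), by gavage 2 times a day for 30 days. The antibiotics were ampicillin, vancomycin, metronidazole and neomycin, given with the antifungal amphotericin B. The labels give an age of 20 weeks. The methods of the study imply a younger age when the ceca were taken. The whole wall of the emptied cecum was used, so all its cell types were pooled in each RNA sample. Expression is given as FPKM, the reads on a gene scaled to the length of its exons and to the reads of the library, divided by a size factor for each mouse, which was 1.01 in all 15. Errors after ± are SD where marked so, and SE is the standard error of a log2 fold change.

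Cells make cholesterol from acetyl-CoA. Early enzymes build mevalonate and then the isoprenoid farnesyl pyrophosphate, squalene synthase joins 2 farnesyl units and so commits them to sterols, and the later enzymes close the rings of squalene and trim lanosterol to cholesterol. When the endoplasmic reticulum is poor in sterol, Scap carries SREBP2 to the Golgi, where it is cut into an active transcription factor of the synthesis genes, and Insig proteins hold this complex back when sterol is plentiful. Enterocytes also take up sterol from the lumen through Npc1l1, esterify it with Soat enzymes and pump it back with Abcg5 and Abcg8.

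Depth was recovered from the FPKM values and came to between 8679672 and 18108573 reads on genes per AIMD mouse (median 11244634) and between 4372409 and 14405935 per vehicle mouse (median 7855358). The cecal epithelium was plain in both groups, with a summed FPKM of 10 epithelial markers of 6148 to 9666 in AIMD mice and 5562 to 7751 in vehicle mice. Of these 10, 2 were called higher and 1 lower in AIMD mice. Vehicle replicate 8, the shallowest library, had the highest sums of smooth muscle markers (3104, against a vehicle median of 1078), fibroblast markers (119 against 64.7), enteric neuron and glia markers (60.1 against 13.3) and adipocyte markers (27.9 against 12) among vehicle mice. In AIMD mice these sums reached 825, 84, 4.38 and 14.7. The immune cell markers summed to 54.6 to 221 in AIMD mice and 37.7 to 74.8 in vehicle mice, with Lyz2 and Csf1r called higher and none lower. This sum came mostly from Lyz2, at 48.6 to 205 in AIMD mice and 28.7 to 54.1 in vehicle mice. Ptprc and Cd79a had log2 fold changes of -0.32 and -0.71 and Cd3e one of 0.15, none of them called. The liver genes Alb and Serpina1a and the pancreas genes Prss2, Cpa1 and Pnlip were below 0.5 FPKM in every mouse. The sums of the liver and pancreas lists came almost wholly from Ttr (4.45 to 37.6 over all mice) and Cela1 (25.6 to 80.9). Of 4 small intestine markers 2 were tested and 1 was called higher, and their sum, nearly all Fabp6, ran from 10.7 to 232 in AIMD mice and 1.48 to 1714 in vehicle mice. The part of these other cells in the differences below was not tested, and in RNA of whole tissue fewer cells of a type and less RNA per cell cannot be told apart.

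Enzymes from the middle of the pathway, the regulator Insig1 and the SREBP2 gene were higher in AIMD mice, while the last reductase Dhcr7, the esterifying enzyme Soat1 and the exporter Abcg5 were lower. Of the 32 genes, 29 reached 0.5 FPKM in 7 or more mice and entered the fit over all 11971 such genes, of which 36.0% were called. Abcg5 passed this filter mainly through the vehicle mice, of which 7 reached 0.5 against 1 AIMD mouse, and Npc1l1, Soat2 and Abcg8 did not pass. Called means an adjusted p under 0.05 (limma, Benjamini-Hochberg over all genes tested). In AIMD mice 13 of the 29 were called higher, where 19.4% of all genes tested were, and 4 were called lower, where 16.6% were, and since the list was drawn up with this comparison known nothing is read from these shares. The median log2 fold change of the 29 was 0.32, against 0.01 over all genes. Without vehicle replicate 8, 12 were called higher and 5 lower. In 6 genes the ranges of the groups did not overlap, with Fdft1, Sqle, Lss, Nsdhl and Insig1 above (5.26% of all genes tested) and Soat1 below (3.30%).

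**Figure D1:**
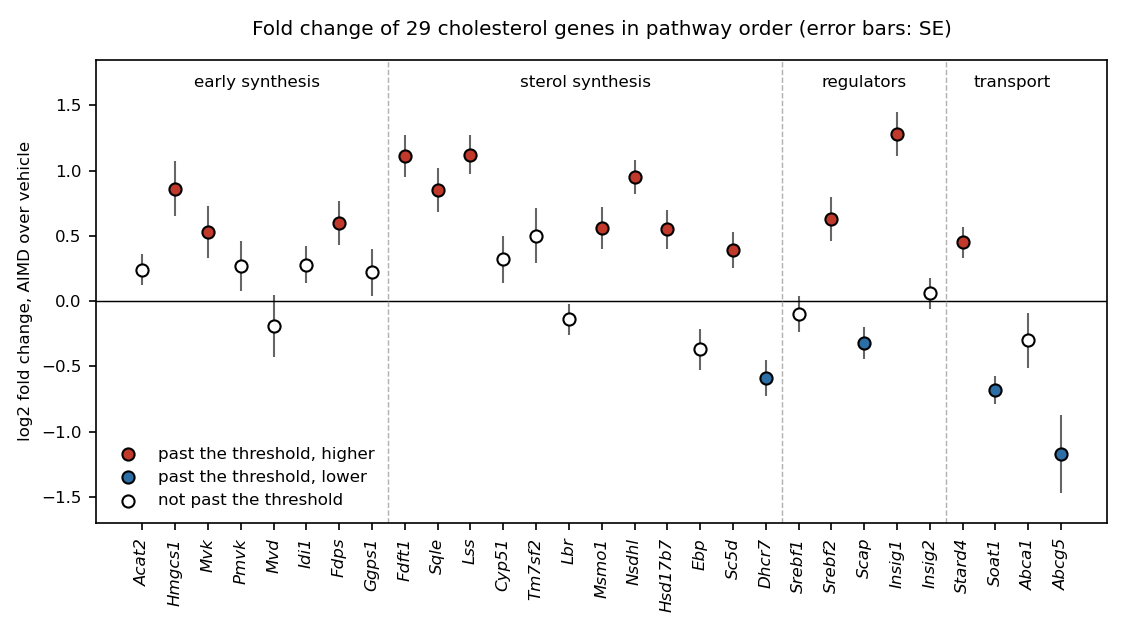
Log2 fold change of AIMD over vehicle mice (y axis, with its standard error) for the 29 genes tested, in pathway order and split by role, with red and blue points for genes called higher and lower and open ones for the rest. Among the enzymes the points are highest at Fdft1, 1.11, and Lss, 1.12, and 4 lie below 0, Mvd at -0.19, Lbr at -0.14, Ebp at -0.37 and Dhcr7 at -0.59.

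Of the 8 early enzymes, 3 were called higher and none lower. Hmgcs1, the synthase that makes HMG-CoA, was one of the most abundant transcripts of the pathway. Its FPKM in vehicle mice ran from 43.6 through a median of 82.7 to 112, and in AIMD mice from 106 through 147 to 225, so that 6 of 7 AIMD mice were above every vehicle mouse. The mean rose from 83.3 ± 27.0 (SD, n = 8) to 148 ± 37.9 (SD, n = 7), a log2 fold change of 0.86 ± 0.21 (SE). Mevalonate kinase, Mvk, rose by 0.53 ± 0.20 (SE) at a low level of 1.65 ± 0.704 (SD, n = 8) in vehicle mice, and its call held in only 12 of 28 ways of running the comparison, the main one included. Fdps, which makes farnesyl pyrophosphate, rose from 0.616 ± 0.282 (SD, n = 8) to 1.17 ± 0.313 (SD, n = 7). Only 6 to 96 reads per mouse stood behind the Fdps values, and 26.2% of its 50-base windows also occur in 8 other genes, so its level is uncertain.

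The other 5 early enzymes did not pass the threshold. Their log2 fold changes were 0.24 for the thiolase Acat2, 0.27 for Pmvk, -0.19 for Mvd, 0.28 for the isomerase Idi1 and 0.22 for Ggps1, which makes the geranylgeranyl chain for protein prenylation. Of the 50-base windows of Idi1, 25.3% recur in 5 other genes, and of those of Acat2 39.1% recur in Acat3 or Tcp1. Levels within these 8 genes differed far more than the groups did, from a vehicle mean of 0.579 FPKM for Idi1 to 83.3 for Hmgcs1.

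The 3 enzymes that turn farnesyl pyrophosphate into lanosterol separated the groups completely. Squalene synthase, Fdft1, had 7.72 to 16.4 FPKM in vehicle mice (median 10.9) and 21.4 to 32.7 in AIMD mice (median 27.6). Its mean rose from 12.3 ± 3.43 (SD, n = 8) to 26.4 ± 3.99 (SD, n = 7), a log2 fold change of 1.11 ± 0.16 (SE). Of the 50-base windows of Fdft1, 26.5% recur in Ctsb or Gm6781, so part of its reads is uncertain. Sqle, the squalene epoxidase that is a slow step of the pathway, lay between 10.4 and 21.1 in vehicle mice (median 16.7) and between 23.2 and 42.2 in AIMD mice (median 28.2). Here the mean rose from 16.3 ± 4.31 (SD, n = 8) to 29.3 ± 6.37 (SD, n = 7), and the log2 fold change was 0.85 ± 0.17 (SE). Lanosterol synthase, Lss, was expressed at only 0.574 to 1.53 FPKM in vehicle mice (median 1.19), against 2.15 to 4.03 in AIMD mice (median 2.92). With 1.12 ± 0.295 (SD, n = 8) and 3.01 ± 0.621 (SD, n = 7), Lss had 2.70 times the vehicle mean, the largest ratio among the 20 enzymes, and a log2 fold change of 1.12 ± 0.15 (SE). All 3 kept their call in each of the 28 ways of running the comparison.

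Of the 9 enzymes after lanosterol, 4 were called higher and 1 lower. Nsdhl, which takes part in the demethylation at carbon 4, was the fourth enzyme without overlap. Vehicle mice had 6.84 to 11.8 FPKM of Nsdhl (median 10.2) and AIMD mice 15.3 to 22.4 (median 19.7), with means of 9.97 ± 1.78 (SD, n = 8) and 19.6 ± 2.27 (SD, n = 7) and a log2 fold change of 0.95 ± 0.13 (SE). Its partners in that step, Msmo1 and Hsd17b7, rose by 0.56 ± 0.16 (SE) and 0.55 ± 0.15 (SE), and the desaturase Sc5d rose by 0.39 ± 0.14 (SE). The Sc5d call held in 19 of 28 ways of running the comparison.

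The 14-demethylase Cyp51, at a vehicle mean of 98.2 ± 21.9 FPKM (SD, n = 8), had a log2 fold change of 0.32 ± 0.18 (SE) and was not called. Tm7sf2 and Lbr both encode a sterol C14 reductase, and Lbr is also a protein of the inner nuclear membrane. Tm7sf2 ran from 1.81 through 2.59 to 5.04 FPKM in vehicle mice and from 2.61 through 4.44 to 6.72 in AIMD mice, and 4 of the 8 vehicle mice lay below every AIMD mouse. Its log2 fold change of 0.50 ± 0.21 (SE) was not past the threshold. Lbr was the more abundant of the pair, with 16.8 to 28.4 in vehicle mice (median 21.6) and 16.1 to 22.6 in AIMD mice (median 19.8), and differed by -0.14 ± 0.12 (SE). The ratio of Lbr to Tm7sf2 within a mouse had a median of 7.44 in vehicle mice and 4.39 in AIMD mice, and its ranges overlapped, at 3.9 to 13.2 and 2.94 to 8.08.

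Dhcr7 was the only one of the 20 enzymes that fell. This reductase, which makes cholesterol from 7-dehydrocholesterol, had 20.3 to 42.5 FPKM in vehicle mice (median 28.0) and 16.6 to 22 in AIMD mice (median 20.4). Its mean fell from 30.6 ± 7.16 (SD, n = 8) to 19.7 ± 2.14 (SD, n = 7), a log2 fold change of -0.59 ± 0.14 (SE), and the call held in all 28 ways of running the comparison. The vehicle mouse at 20.3, replicate 8, was the only one within the AIMD range, and without it the difference was -0.67. The isomerase Ebp, which acts ahead of Dhcr7, had 67.9 ± 15.4 (SD, n = 8) and 52.0 ± 10.3 (SD, n = 7), a difference of -0.37 ± 0.16 (SE) that was not called, but was in 6 of the 28 ways of running the comparison. The ratio of Sqle to Dhcr7 within each mouse does not depend on the scaling of the libraries. It lay between 0.307 and 1.04 in vehicle mice and between 1.09 and 2.07 in AIMD mice. The same ratio with Hmgcs1 in place of Sqle overlapped, at 1.34 to 5.49 in vehicle mice and 5.13 to 11.1 in AIMD mice. Both ratios set a gene that rose over a gene that fell, so they restate those differences and add no evidence of their own.

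**Figure D2:**
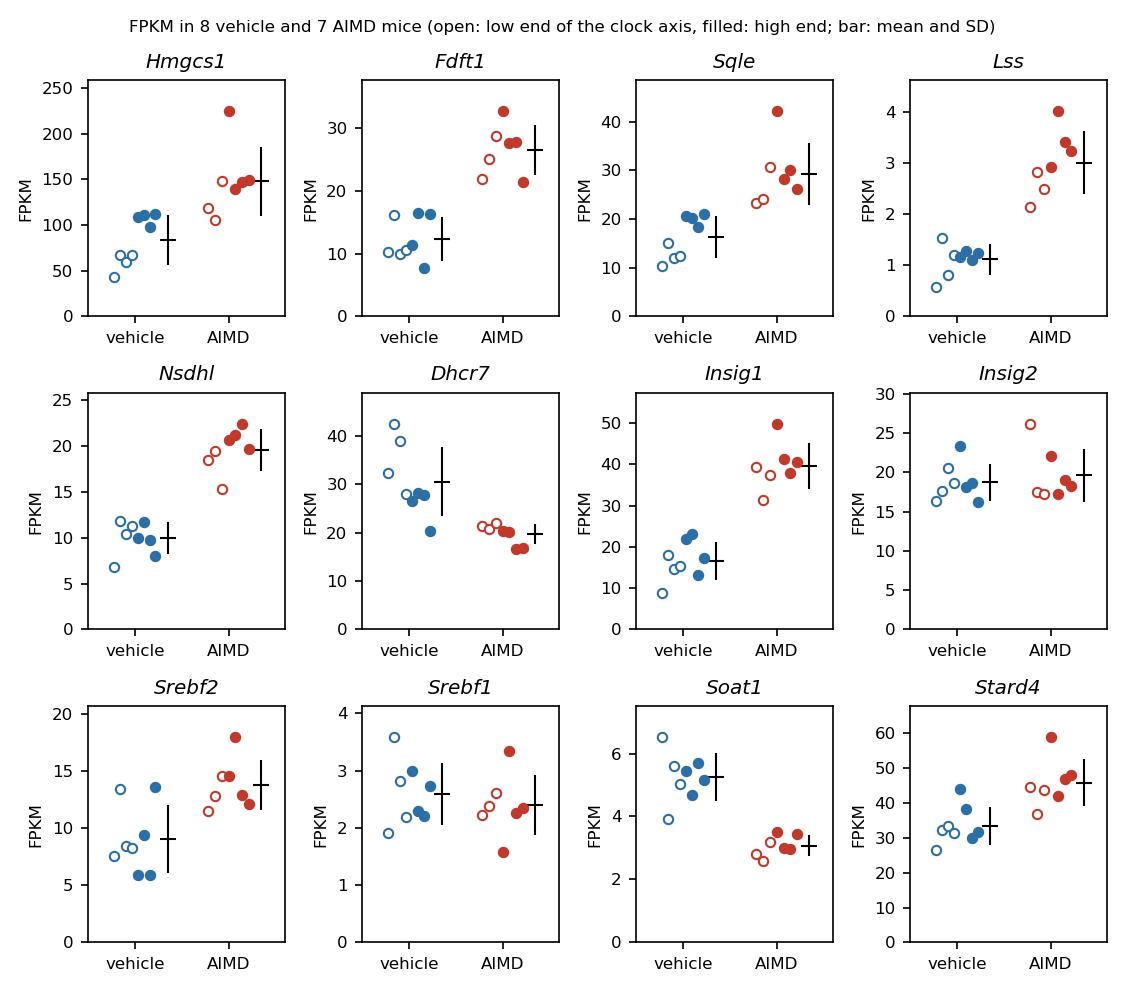
FPKM of 12 genes (y axes from 0) in each of 8 vehicle and 7 AIMD mice, with mean and SD beside the points, and with open and filled points for mice at the low and the high end of an axis of clock genes. Fdft1, Sqle, Lss, Nsdhl and Insig1 have every AIMD mouse above every vehicle mouse, Soat1 has them all below, and Insig2 and Srebf1 have groups that overlap almost wholly.

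Among the 5 regulators, 2 were called higher and 1 lower, and paralogs differed. Insig1, the Insig whose own transcription is driven by SREBP, had 8.75 to 23.0 FPKM in vehicle mice (median 16.3) and 31.3 to 49.8 in AIMD mice (median 39.4). The mean rose from 16.5 ± 4.64 (SD, n = 8) to 39.7 ± 5.54 (SD, n = 7), a log2 fold change of 1.28 ± 0.17 (SE). This was the largest rise of the 29 on this scale, but with 0.1 added in place of 0.5 Lss rose more (1.38 against 1.30), as it did with limma voom (1.43 against 1.31). Between 201 and 2219 reads per mouse stood behind the Insig1 values. Insig2, its paralog, ran from 16.2 through 18.4 to 23.4 in vehicle mice and from 17.2 through 18.3 to 26.2 in AIMD mice, and its log2 fold change was 0.06 ± 0.12 (SE). The ratio of Insig1 to Insig2 within a mouse separated the groups, as Insig1 alone did. It was 0.534 to 1.26 (median 0.879) in vehicle mice and 1.5 to 2.41 (median 2.18) in AIMD mice.

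Srebf2, the SREBP2 gene, had 5.88 to 13.6 FPKM in vehicle mice (median 8.35) and 11.5 to 18 in AIMD mice (median 12.9), and 3 AIMD mice were above every vehicle mouse. It rose from 9.05 ± 2.99 (SD, n = 8) to 13.8 ± 2.19 (SD, n = 7), a log2 fold change of 0.63 ± 0.17 (SE). This call was lost with an exact rank-sum test and with the epithelial markers as a covariate, which lowered the log2 fold change to 0.36. Srebf1, which encodes the SREBP1 proteins of fatty acid synthesis, had 1.91 to 3.59 FPKM in vehicle mice (median 2.51) and 1.58 to 3.35 in AIMD mice (median 2.35), and a log2 fold change of -0.10 ± 0.14 (SE). In no mouse of either group was Srebf1 above Srebf2, and the ratio of Srebf2 to Srebf1 was 1.96 to 4.97 in vehicle mice and 5.14 to 9.20 in AIMD mice. Scap, the escort of both proteins, fell from 3.97 ± 0.582 FPKM (SD, n = 8) to 3.09 ± 0.575 (SD, n = 7), a log2 fold change of -0.32 ± 0.12 (SE), and its call held in 16 of 28 ways of running the comparison.

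The DNA before the start sites of these genes was searched for letters known from sterol-regulated promoters, in windows of 300 bases from RefSeq (GRCm38.p6), 250 before and 50 after each start. A window was at hand for 27 of the 32 genes. The letters searched, on both strands, were TCACNCCAC for a sterol element, CCAAT for the box that binds NF-Y, GGGCGG for the box that binds Sp1, and CACGTG for an E-box. The sterol element stood in 1 of the 27, Hmgcs1, 137 bases before the start as TCACCCCAC, and in 1.44% of all 27025 genes with a window. CCAAT stood in 24 of 27, against 41.1% of all genes, GGGCGG in 22 of 27, against 38.2%, and CACGTG in 6 of 27, against 8.09%. A gene with several start sites, here and in the background, had several windows in which to match. Such a match is a description of letters and no evidence of binding. Only this spelling of the sterol element was searched, so its absence is no evidence that a promoter lacks such an element.

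The bases before the start are shown for Hmgcs1, the only member with the letters TCACNCCAC, and for the members without overlap between the groups that had a window. These were Insig1, Lss and Nsdhl above and Soat1 below. The bases are written 5′ to 3′ on the strand of the gene, with TCACNCCAC and CCAAT (or ATTGG, the same box on the other strand) in capitals. They lie at chr13:119690101-119690350 on the plus strand for Hmgcs1, chr5:28071162-28071362 on the plus strand for Insig1, chr10:76531355-76531587 on the plus strand for Lss, chrX:72918271-72918520 on the plus strand for Nsdhl and chr1:156474332-156474578 on the minus strand for Soat1, all upstream of the annotated gene.
Hmgcs1: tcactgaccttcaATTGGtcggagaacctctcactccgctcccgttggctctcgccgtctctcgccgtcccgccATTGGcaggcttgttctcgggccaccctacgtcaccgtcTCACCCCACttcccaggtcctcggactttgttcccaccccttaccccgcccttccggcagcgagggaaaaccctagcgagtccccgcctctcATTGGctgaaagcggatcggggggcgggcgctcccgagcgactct
Insig1: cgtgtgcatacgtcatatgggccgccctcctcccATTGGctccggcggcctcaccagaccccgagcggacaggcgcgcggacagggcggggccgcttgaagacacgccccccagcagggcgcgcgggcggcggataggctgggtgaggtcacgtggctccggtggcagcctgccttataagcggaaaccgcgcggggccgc
Lss: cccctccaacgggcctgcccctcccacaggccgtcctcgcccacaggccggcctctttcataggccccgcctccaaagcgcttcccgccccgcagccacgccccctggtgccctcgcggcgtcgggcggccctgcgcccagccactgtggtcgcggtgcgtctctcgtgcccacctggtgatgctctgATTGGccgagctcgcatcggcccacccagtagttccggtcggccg
Nsdhl: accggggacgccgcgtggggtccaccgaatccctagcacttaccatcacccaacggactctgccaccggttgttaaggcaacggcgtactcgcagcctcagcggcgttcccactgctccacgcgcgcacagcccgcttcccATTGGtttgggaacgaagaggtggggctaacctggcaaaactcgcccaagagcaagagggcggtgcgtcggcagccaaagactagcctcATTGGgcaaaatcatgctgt
Soat1: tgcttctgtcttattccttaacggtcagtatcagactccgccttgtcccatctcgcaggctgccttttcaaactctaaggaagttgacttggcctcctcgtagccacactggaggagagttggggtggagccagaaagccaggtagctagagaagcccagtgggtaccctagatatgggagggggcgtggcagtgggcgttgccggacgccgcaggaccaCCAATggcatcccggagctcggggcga
The CCAAT letters stand in all 5, in the promoter of the gene that fell as in those of the genes that rose.

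The 7 genes of transport and storage were mostly low, and of the 4 tested 1 was called higher and 2 lower. Stard4, a soluble carrier of sterol between membranes, was the abundant one, and rose from 33.4 ± 5.34 FPKM (SD, n = 8) to 45.8 ± 6.87 (SD, n = 7), a log2 fold change of 0.45 ± 0.12 (SE). Soat1, which esterifies cholesterol for storage, had 3.93 to 6.53 FPKM in vehicle mice (median 5.29) and 2.59 to 3.51 in AIMD mice (median 3.01), with no overlap. The mean fell from 5.26 ± 0.772 (SD, n = 8) to 3.07 ± 0.330 (SD, n = 7), a log2 fold change of -0.68 ± 0.11 (SE) that kept its call in all 28 ways of running the comparison. Soat2, the paralog known from small intestine and liver, was at most 0.306 FPKM in any mouse, on 7 reads or fewer, so no difference was detectable at this depth. Abca1, which loads cholesterol onto apolipoprotein A-I, had 1.10 ± 0.517 FPKM (SD, n = 8) and 0.794 ± 0.409 (SD, n = 7) and a log2 fold change of -0.30 ± 0.21 (SE) that was not called.

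Abcg5 and Abcg8 form one pump only together. Abcg5 had 0.432 to 4.17 FPKM in vehicle mice (median 0.914) and 0 to 1.03 in AIMD mice (median 0.0877), and 6 of 7 AIMD mice, all but replicate 6, were below every vehicle mouse. Its log2 fold change was -1.17 ± 0.30 (SE), where the 0.5 added before taking logs understates the change of so low a gene, and the value was -2.16 with 0.1 added instead and -2.87 with limma voom on recovered reads. With epithelial markers as a covariate it was -0.92 and no longer called. Abcg8 was lower still, with 0.0718 to 1.75 FPKM in vehicle mice (median 0.184) and 0 to 0.442 in AIMD mice (median 0.0440), on 29 reads or fewer per mouse, and was not tested. The genes lie head to head on chromosome 17 and overlap on opposite strands, Abcg5 on the minus strand from 84658234 to 84683011 and Abcg8 on the plus strand from 84676302 to 84700333. The libraries were stranded, but the strand setting of the counting is not given in the sources used here.

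Npc1l1, the uptake protein, was at most 0.773 FPKM in 11 of 15 mice and 2.53 to 9.17 in the other 4. These were AIMD replicate 6 (2.53) and vehicle replicates 5 (3.13), 7 (2.84) and 8 (9.17). The same 4 mice held the 4 highest values of Fabp6, the bile acid binding protein of the ileum, in the same order 223, 1030, 1052 and 1701 FPKM, where the other 11 had 1.41 to 69.1. They also held the 4 highest values of sucrase-isomaltase, Sis, at 4.57, 3.31, 2.31 and 3.79, against at most 0.546 elsewhere, while lactase, Lct, was at most 0.141 in any mouse. AIMD replicate 6 and vehicle replicate 8 also had the highest Abcg5 and Abcg8 of their groups. What these small intestine markers mean for the transporters was not tested. Leaving the 4 mice out was tried only after their values were known. Of all members 13 were then called higher and 3 lower, Abcg5 among the latter with a log2 fold change of -1.05. AIMD replicate 6, left out here, was the only AIMD mouse that reached 0.5 FPKM of Abcg5. Its filter was thus met through vehicle mice alone, and nothing is read from that call.

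**Figure D3:**
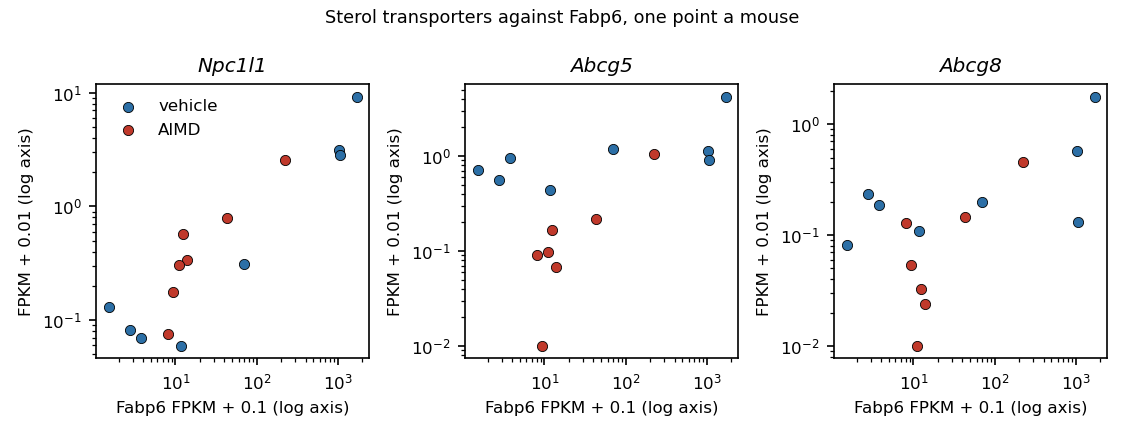
FPKM of Npc1l1, Abcg5 and Abcg8 (y axes, log scale, 0.01 added) against FPKM of Fabp6 (x axes, log scale, 0.1 added), with a point for each vehicle and AIMD mouse. Npc1l1 is highest in the 4 mice with Fabp6 of 223 FPKM or more, and for Abcg5 the AIMD mice lie below the vehicle mice except AIMD replicate 6 at 1.03.

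Beyond the 32 genes, 43 others of sterol handling had been listed by textbook role, also with earlier results known, and 39 of these were tested. In AIMD mice 11 were called higher and 5 lower, with a median log2 fold change of 0.13, against 19.4% called higher, 16.6% called lower and a median of 0.01 over all genes tested, and nothing is read from these shares. Without AIMD replicate 1 the number called lower was 3. Of the 9 genes that control SREBP and its cargo, 1 rose and 1 fell. Aup1, a lipid droplet protein that also takes part in protein degradation at the endoplasmic reticulum, rose by 0.70 (limma adjusted p = 0.0392), with 18.6% of its 50-base windows found also in Htra2, and held its call in 14 of 28 ways of running the comparison. The ubiquitin ligase Rnf145 fell by 0.40 on the log2 scale (limma adjusted p = 0.0352), a call that held in 15 of 28 ways. Mylip, a ligase that liver X receptors induce, rose by 0.56 (limma adjusted p = 0.0351, held in 18 of 28 ways), while the receptors themselves, Nr1h2 and Nr1h3, were not called. Abcg1, a transporter those receptors induce, was at 0.464 ± 0.250 FPKM (SD, n = 8) and 0.538 ± 0.223 (SD, n = 7) and was not called (limma adjusted p = 0.622).

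Among the 6 tested genes of uptake and the lysosome, Vldlr and Lipa rose and none fell. Vldlr, a lipoprotein receptor, went from 3.36 ± 1.10 FPKM (SD, n = 8) to 6.77 ± 1.69 (SD, n = 7), a log2 fold change of 0.93 ± 0.19 (SE, limma adjusted p = 0.00140). Lipa, the lysosomal lipase that frees cholesterol from its esters, rose by 0.50 ± 0.12 (SE, limma adjusted p = 0.00435). Nceh1, a hydrolase of cholesterol esters outside the lysosome, was the only one of the 43 that fell without overlap, as 3.30% of all genes tested did. It had 25.2 to 36.9 FPKM in vehicle mice (median 28.9) and 12.8 to 23.5 in AIMD mice (median 16.0), a log2 fold change of -0.83 ± 0.13 (SE, limma adjusted p = 0.000133). The esterifying enzyme Soat1 and this hydrolase were thus both lower.

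Of 8 genes that move sterol within the cell, Stard3, Gramd1b, Osbp and Osbpl2 rose by 0.77, 0.72, 0.33 and 0.43, and Stard5 and Gramd1a fell by 0.53 and 0.54 on the log2 scale, with limma adjusted p of 0.00293, 0.0102, 0.0342, 0.00982, 0.00704 and 0.0280. The call of Osbp held in 20 of 28 ways of running the comparison and that of Gramd1a in 21 of 27. Of the 50-base windows of Stard5, 21.2% recur in Il16 or Gm45838. Stard3 and Osbp act at contacts of the endoplasmic reticulum with other membranes. Of 8 genes of the isoprenoid branch, which draws on farnesyl pyrophosphate ahead of squalene, 3 rose and 1 fell. Pdss1, which makes the side chain of coenzyme Q, rose from 5.01 ± 1.81 FPKM (SD, n = 8) to 9.15 ± 0.845 (SD, n = 7, limma adjusted p = 0.00344). Fnta, the shared subunit of protein prenyltransferases, rose from 40.3 ± 7.06 (SD, n = 8) to 55.6 ± 5.10 (SD, n = 7, limma adjusted p = 0.00605). Both were higher without overlap, as 5.26% of all genes tested were, and nothing is read from the lack of overlap. Fntb, the farnesyltransferase subunit, rose by 0.82 (limma adjusted p = 0.00248), and Dhdds, which makes the dolichol chain, fell by 0.36 on the log2 scale (limma adjusted p = 0.0220). None of the 3 tested genes of oxysterol synthesis was called, with log2 fold changes of -0.38 for Cyp27a1 (limma adjusted p = 0.0567), 0.49 for Ch25h (limma adjusted p = 0.119) and -0.10 for Cyp39a1 (limma adjusted p = 0.670).

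Mice of each group also differed among themselves in their clock genes. An axis built from 9 clock genes, with the group means removed, held 94.6% of their variance and split the mice into clusters, with AIMD replicates 1 to 3 and vehicle replicates 1 to 4 between -3.32 and -2.27 and the other 8 mice between 1.68 and 3.95. The times of sacrifice are not in the labels, so the axis stands in for no known hour, and it was set against all genes after the data were seen. A slope on it is the log2 difference from one end of the axis to the other with treatment in the limma model, and the list was not chosen by it. Of the 29 genes, 7 were called higher at the high end, where 9.25% of all genes were, and 1 lower, where 12.6% were. They were Hmgcs1 (0.89 ± 0.17, SE, limma adjusted p = 0.00368), Sqle (0.66, 0.00810), Ggps1 (0.59, 0.0316), Msmo1 (0.52, 0.0375), Hsd17b7 (0.47, 0.0485), Idi1 (0.45, 0.0391) and Abca1 (0.81, 0.0115), each with its slope and limma adjusted p, and Dhcr7 was the one lower (-0.47, limma adjusted p = 0.0243). Of the genes without overlap between the groups, Fdft1 (0.20), Lss (0.34), Nsdhl (0.10), Insig1 (0.45) and Soat1 (0.08) had slopes that were not past the threshold. The 4 mice with high Fabp6 all lay at the high end. AIMD replicate 6 was at 2.24 and vehicle replicates 5, 7 and 8 at 2.82, 2.32 and 3.95. Vehicle replicate 8, the shallowest library, also had the highest Abca1 and the lowest Dhcr7 of the vehicle mice. The part of these mice and their tissue in the slopes was not tested.

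Of the 39 other genes of sterol handling, 6 were called higher and 7 lower at the high end, and Vldlr had a slope of 0.84 (limma adjusted p = 0.00174). Hmgcs1 was 43.6 to 67.4 FPKM in the 4 vehicle mice at the low end and 97.9 to 112 in the 4 at the high end, and 106 to 148 in the 3 AIMD mice at the low end and 140 to 225 in the 4 at the high end. It thus separated AIMD from vehicle mice within each end, though not over all mice. At both ends Hmgcs1, Fdft1, Sqle, Lss, Nsdhl and Insig1 had all AIMD mice above all vehicle mice, as 8.75% of all genes tested did, and Soat1 had them below, as 5.62% did. With the axis as a covariate, 14 members were called higher and 5 lower, Tm7sf2 and Ebp being added, and the log2 fold change of Hmgcs1 stayed at 0.86, with a standard error of 0.13 in place of 0.21.

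**Figure D4:**
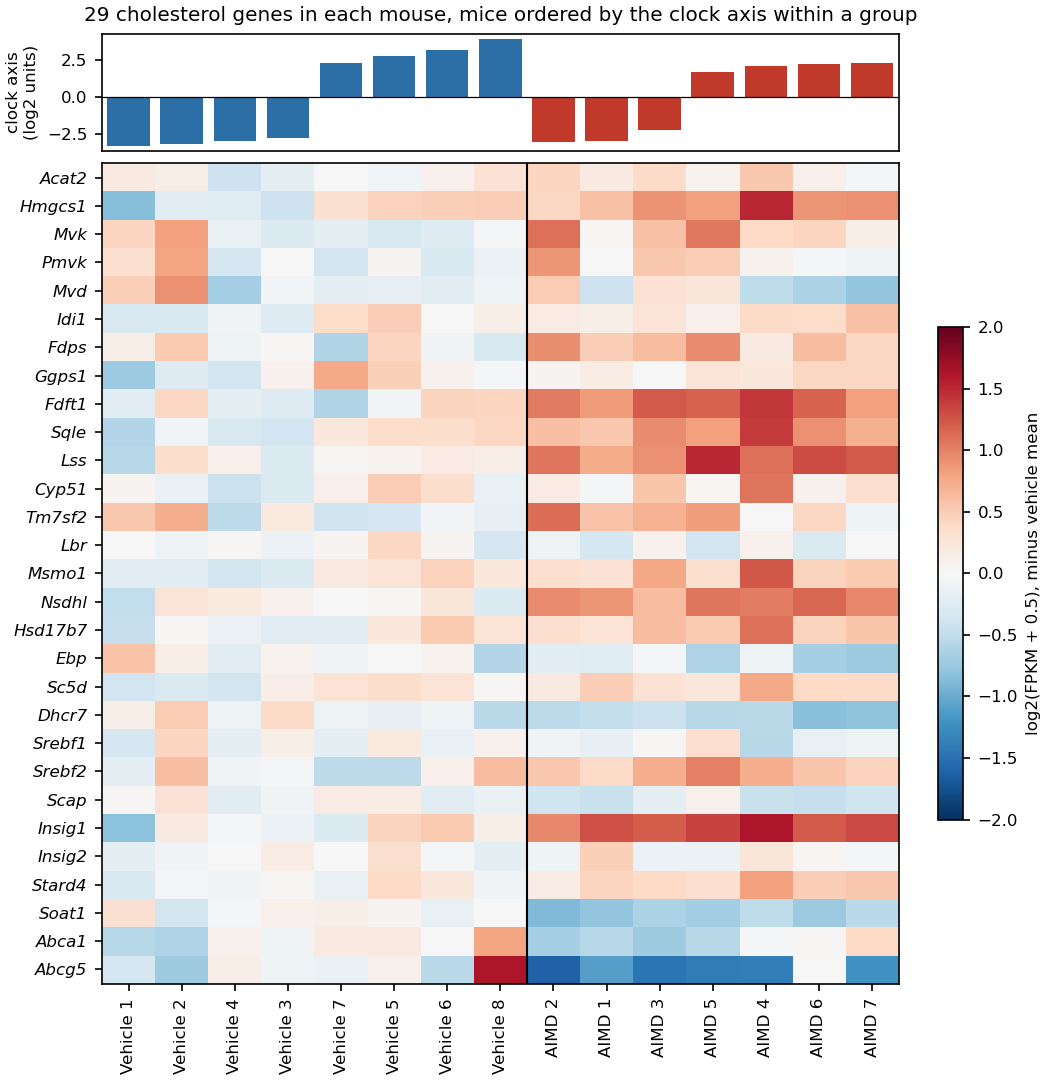
Heat map of log2(FPKM + 0.5), relative to the vehicle mean, for the 29 genes (from top to bottom in pathway order) in each mouse (from left to right by group and then by clock axis, whose value is drawn above). Fdft1, Lss, Nsdhl and Insig1 are red in all 7 AIMD mice, Soat1 and Dhcr7 are blue, and in vehicle mice Hmgcs1 and Sqle go from blue or near white at the low end to red at the high end.

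Whether the other members varied with Hmgcs1 from mouse to mouse was asked of the values with group means removed, a variation that the choice of genes had not used. Of 28 members, 10 had an adjusted p under 0.05 (two-sided permutations within groups, Benjamini-Hochberg over 28), but the mice fell into the clusters above, so no r over them is given. With the clock axis removed as well, 4 remained, all positive, by permutation over 15 mice. The share of all genes tested that varies with Hmgcs1 was not worked out, so nothing is read from the counts of 10 and 4. Sqle had r = 0.91 (permutation, adjusted p = 0.00196) and rho = 0.85 (permutation, adjusted p = 0.00887). Insig1 had r = 0.70 (permutation, adjusted p = 0.00714) and rho = 0.74 (permutation, adjusted p = 0.00887), Hsd17b7 r = 0.77 (permutation, adjusted p = 0.0132) and rho = 0.80 (permutation, adjusted p = 0.00887), and Msmo1 r = 0.73 (permutation, adjusted p = 0.0484) and rho = 0.62 (permutation, adjusted p = 0.171). Without AIMD replicate 4 and vehicle replicate 1, the 2 mice farthest from the median, Sqle (0.84) and Msmo1 (0.85) stayed under 0.05, while Hsd17b7 (0.57) and Insig1 (0.36) rested on those mice. Within the cluster at the low end (7 mice) r for Sqle was 0.87 (permutation p = 0.0364, adjusted p = 0.34). Within that at the high end (8 mice) it was 0.95 (permutation p = 0.0367, adjusted p = 0.206). No relation passed the adjustment within a cluster. So few mice allow few distinct permutations, which made the adjustment hard to pass at any r, and nothing is read from this. Of the other enzymes without overlap between the groups, Fdft1, Lss and Nsdhl had r of 0.38, 0.13 and 0.20 to Hmgcs1 with the axis removed, none past the adjusted threshold.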

How the data were processed

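Polyadenylated RNA of 15 ceca was sequenced in stranded libraries. Per the labels and methods, the authors mapped reads to GRCm38 with STAR, counted them with featureCounts on GENCODE genes, tested with DESeq2, and deposited FPKM per gene and mouse, unpooled. How counts became FPKM is not given in the sources used here. Whole reads came out of the deposited FPKM for 24278 of 24279 genes above 0 (tolerance 0.02). Of 45808 rows, 4 with a repeated symbol were left out and 27 carry a date for a symbol.

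Size factors were medians of ratios over 13594 genes above 0 in all mice, and each FPKM was divided by that of its mouse before 0.5 was added and log2 taken. Genes with at least 0.5 in at least 7 mice were fitted with limma 3.58.1 (R 4.3.3; lmFit, eBayes with trend), two-sided, with Benjamini-Hochberg adjustment at 0.05. Fold changes on this scale understate those of low genes. Treatment alone was fitted, since the labels give no time of sacrifice, which the authors' model held as a second factor. Correlations used 100000 permutations within groups, whose smallest p is 1e-05. Within a cluster the few mice allow far fewer distinct arrangements, so p cannot be that small there. In simulated data for the AIMD comparison (11971 genes, 200 changed 2-fold), limma called 99% of the changed genes and 1.98% of its calls were unchanged ones. The changed genes were drawn only from those with more reads, with the same dispersion for every gene and no clusters of mice. Both percentages therefore say nothing about genes of few reads or about the spread of the real mice. Tables and plots were made with matplotlib 3.10.9, scipy 1.17.1, pandas 2.3.3 and numpy 2.4.6 under Python 3.11.15.

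The members and lists were chosen with earlier results of these data known. Every member is accounted for, and values by mouse are given for those without overlap and for 5 pairs of related genes. Of the 43 other genes, those called and Abcg1 are named. Some genes of these lists are not reported here and are left out of the lists' counts. Genes named outside this rule, Hmgcs1 and Dhcr7 by mouse, Nr1h2, Nr1h3, the oxysterol genes and Npc1, Npc2, Nus1 and Coq2, were chosen after their values were seen. Promoters are from RefSeq (GRCm38.p6) and positions from GENCODE M21. Alternatives were other scalings, pseudocounts and filters, an exact rank-sum test, limma voom on recovered reads, a replicate block, clock and epithelial covariates and each mouse left out, and, after the data were seen, the clock slope and 4 mice left out.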

Additional observations from a re-analysis of the deposited data

Results flagged for a closer look

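In 98 groups (49 genes in AIMD and in vehicle mice), 13 held a mouse far from the rest by Dixon's test at 95%. Chance flags about 1 group in 20 if the groups are independent and their values normal. These were FPKM without logs, of genes that vary together in the same mice, so no excess over chance is read from the 13. AIMD replicate 4 stood above its group in 4 enzymes. Its FPKM was 225 for Hmgcs1 (next 149), 42.2 for Sqle (next 30.7), 132 for Msmo1 (next 95.3) and 11.3 for Hsd17b7 (next 7.89). Sqle, Msmo1 and Hsd17b7 are among the 4 genes still related to Hmgcs1 with the clock axis removed, and without this mouse the relations past the threshold (group means removed) went from 10 to 3. AIMD replicate 4 also had the highest value of its group in 8 of the 20 enzymes.

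The sterol transporters stood out in the mice with high Fabp6. AIMD replicate 6 had 2.53 FPKM of Npc1l1 (next 0.773), 1.03 of Abcg5 (next 0.209) and 0.442 of Abcg8 (next 0.136). Vehicle replicate 8 had 9.17 of Npc1l1 (next 3.13), 4.17 of Abcg5 (next 1.18), 1.75 of Abcg8 (next 0.563) and 2.16 of Abca1 (next 1.24).

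Vehicle replicate 5 had 28.4 FPKM of Lbr (next 22), and vehicle replicate 2 had 4.01 of Stard3 (next 2.61).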

How the results depend on the processing

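The count of all genes called was 4315 and lay between 3302 and 5106 over the alternatives, and those of members called higher and lower moved by less than 1.5 times. Called members that lost the call under some alternative were Mvk, Sc5d, Scap, Srebf2, Fdps and Abcg5, and among the other genes of sterol handling Aup1, Rnf145, Mylip, Osbp, Gramd1a, Osbpl2 and Dhdds. Single enzymes decided the count of enzymes called lower. It was 1, and 2 with quantile normalization, the exact rank-sum test, the replicate block and the clock axis as a covariate, 3 with epithelial markers as a covariate, and 1 to 2 with a mouse left out, the 2 being without vehicle replicate 8. Other genes of sterol handling called lower were 5. They were 3 with no filter, 4 with a stricter filter and 6 with quantile normalization. The replicate block gave 7, as did the clock axis as a covariate. With a mouse left out they were 3 to 6, the 3 being without AIMD replicate 1. Members related to Hmgcs1 fell from 10 to 4 with the clock axis removed and lay between 3 and 9 with a mouse left out, the lowest being 3 without AIMD replicate 4, 4 without vehicle replicate 1 and 6 without vehicle replicate 3. The cause was not tested. Genes that were not called changed sign for Pmvk (-0.07) and Abca1 (0.12) with epithelial markers, and for Insig2 without AIMD replicate 1 (-0.01, range with a mouse left out -0.01 to 0.11). Same-numbered mice are different animals, and their deviations correlated between -0.35 and 0.432, so they were not treated as pairs, though numbers 1 to 3 lie at the low and 5 to 7 at the high end of the clock axis in both groups. With the replicate block 4647 genes, 13 members higher and 5 lower were called. Low reads limit Fdps, Idi1, Npc1l1, Soat2, Abcg5 and Abcg8.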

Other observations

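Some enzymes followed other mice than Hmgcs1 did. Vehicle replicate 2 had the highest vehicle value of 8 of the 20 enzymes, Mvk (3.15 FPKM), Pmvk (19.5), Mvd (15.5), Fdps (1.06), Lss (1.53), Tm7sf2 (5.04), Nsdhl (11.8) and Dhcr7 (42.5), though its Hmgcs1 was only 67.4. AIMD replicate 2 had the highest AIMD value of Mvk (3.95), Pmvk (21), Mvd (11.6) and Tm7sf2 (6.72), and the lowest of Hmgcs1 (106). Vehicle replicate 2 was the deepest vehicle library, at 14405935 reads, and AIMD replicate 2 was below the AIMD median, at 10504394. The part of depth in this was not tested.

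Other genes of sterol handling also had slopes on the clock axis that were past the threshold. Npc1, the lysosomal sterol exporter, had 0.90 (limma adjusted p = 0.00208) and its partner Npc2 -0.64 (limma adjusted p = 0.00555). Nus1 of dolichol synthesis had 0.73 (limma adjusted p = 0.00845), Coq2 of coenzyme Q synthesis -0.63 (limma adjusted p = 0.00550), and Aup1 -0.98 (limma adjusted p = 0.00955). None of these but Aup1 was called between AIMD and vehicle mice. The mice with high Fabp6 all lay at the high end of the axis, and vehicle replicate 8 had the highest Npc1 (10.7 FPKM). Their part in these slopes was not tested.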
